A study of Homo sapiens with 36 samples.

Results

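JUNB was knocked down with small interfering RNA (siRNA) in MDA-MB-231 cells, and the RNA of 2 libraries with the JUNB siRNA (JUNBi_1 and JUNBi_2) was compared with that of 2 libraries with a control siRNA (Ctrli_3 and Ctrli_4). These 4 libraries were chosen by their titles from the 36 of the series. The series is a study of YAP, TAZ, STAT3 and AP-1 factors in breast epithelial and breast cancer cells. The established line MDA-MB-231 comes from a triple-negative breast carcinoma and has a mesenchymal character. A pair of libraries with STAT3 siRNA (STAT3i_1 and STAT3i_2), made in the same set according to the titles, served as a further reference. Where stated, 2 control libraries of another MDA-MB-231 set (set 1) and 8 libraries of MCF-10A ER-Src cells are used. The ER-Src cells carry a v-Src fusion that tamoxifen activates. They had control or JUNB siRNA and were treated with tamoxifen or with ethanol as the vehicle. According to the study's methods the siRNAs were commercial pools of several oligonucleotides per gene. A single pool was used against JUNB, so loss of JUNB and other effects of the same oligonucleotides cannot be told apart. The labels do not say whether libraries of a group came from separate cultures, so the p-values measure the spread between these libraries, which may be technical.

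JUNB is a subunit of AP-1, a family of dimeric transcription factors. JUN proteins (JUN, JUNB and JUND) pair with each other or with FOS proteins (FOS, FOSB, FOSL1 and FOSL2) and with some ATF, BATF and MAF proteins, and bind short palindromic DNA elements. JUNB can activate genes or act as a weak partner that restrains JUN. In breast cancer cells AP-1 is known for genes of invasion and inflammation, such as MMP1 and PLAU, and its sites often lie next to those of TEAD proteins, through which YAP and TAZ bind DNA.

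The JUNB transcript was lower in both JUNBi libraries. JUNB (ENSG00000171223.5, chromosome 19, 12791486 to 12793315, plus strand, GRCh38) held 514 and 367 normalized counts in Ctrli_3 and Ctrli_4, and 106 and 108 in JUNBi_1 and JUNBi_2. Normalized counts here are RSEM expected counts divided by a size factor per library, computed over the 6 libraries of the set. The means were 440 ± 104 (SD, n = 2) and 107 ± 1.28, and the groups did not overlap. The 2 STAT3i libraries held 320 and 373, near Ctrli_4. The log2 fold change of JUNBi over Ctrli was -2.04 (SE 0.31, adjusted p 2.1e-08, DESeq2), which is 4.11-fold lower. With edgeR's quasi-likelihood test the adjusted p was 0.0319, which misses the threshold of 0.01 used throughout. Against STAT3i the log2 fold change was -1.69 (adjusted p 2.6e-09). In TPM, the level per length, JUNB stood at 31.6 and 18.7 in Ctrli, 6.7 and 7.99 in JUNBi, and 41.9 and 49.7 in the set 1 controls. The annotation places JUNB within HOOK2 on the opposite strand, and how the counting used strand is not given in the sources used here.

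The libraries were checked for identity and for how far they stood apart. Their titles and cell line labels name MDA-MB-231, whereas the growth text of the same labels describes MCF-10A ER-Src cells, and the titles were followed. They held 7290499 to 18076158 expected counts, with JUNBi_1 the deepest. Of 11 mesenchymal-like markers, 10 were measured at 12.2 TPM or more in each of the 4 libraries, with VIM at 817 to 1599 TPM, and SPARC was at 0.64 TPM or less. ESR1, PGR, FOXA1 and TFF1 were at 0 in the 4 libraries, whereas the keratins KRT8, KRT18 and KRT19 were at 287 to 745 TPM. The defining leukocyte gene PTPRC was at 0, with the leukocyte list at 433 to 561 TPM in sum, of which CD74 made 410 to 542. The summed TPM of the basal epithelial, fibroblast and endothelial markers reached at most 3.8 and that of the erythroid and the neural and embryonic ones at most 6.46. The hepatocyte list moved with the groups, at 76.8 and 89.6 TPM in Ctrli and 123 and 146 in JUNBi, nearly all of it SERPINA1, with ALB at 0.36 or less. The mitochondrial genome took 3.4% and 4.38% of the counts in Ctrli and 4.94% and 5.5% in JUNBi. The 2 controls differed from each other more than the libraries of the other groups did. Among 8354 genes with a mean of at least 100 normalized counts, 336 (4.02%) differed at least 2-fold between Ctrli_3 and Ctrli_4, against 32 (0.383%) between JUNBi_1 and JUNBi_2 and 49 (0.587%) between STAT3i_1 and STAT3i_2. Ctrli_3 lay closer to the STAT3i libraries, with 54 and 35 such genes, than to Ctrli_4. The SD of the log2 ratio was 0.585 between the controls and 0.261 between the JUNBi libraries.

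The libraries also differed by base composition. In the 1668 genes with the highest GC content (59% to 76%, the top of 5 classes of like size), the median log2 deviation from the mean of the 6 libraries was 0.36 in Ctrli_4, 0.12 in Ctrli_3, -0.17 in JUNBi_1, -0.18 in JUNBi_2 and -0.06 in both STAT3i libraries. In the lowest class the order was turned, with -0.18 in Ctrli_4 and 0.13 in JUNBi_1. By gene length the shortest class stood at 0.17 in Ctrli_4 and -0.20 in JUNBi_2, and within 0.03 of 0 in the other 4 libraries. These trends run along the contrast of JUNBi with Ctrli, so results are also given with size factors set within 20 bins of GC content, a setting chosen after the data were seen.

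**Figure D1:**
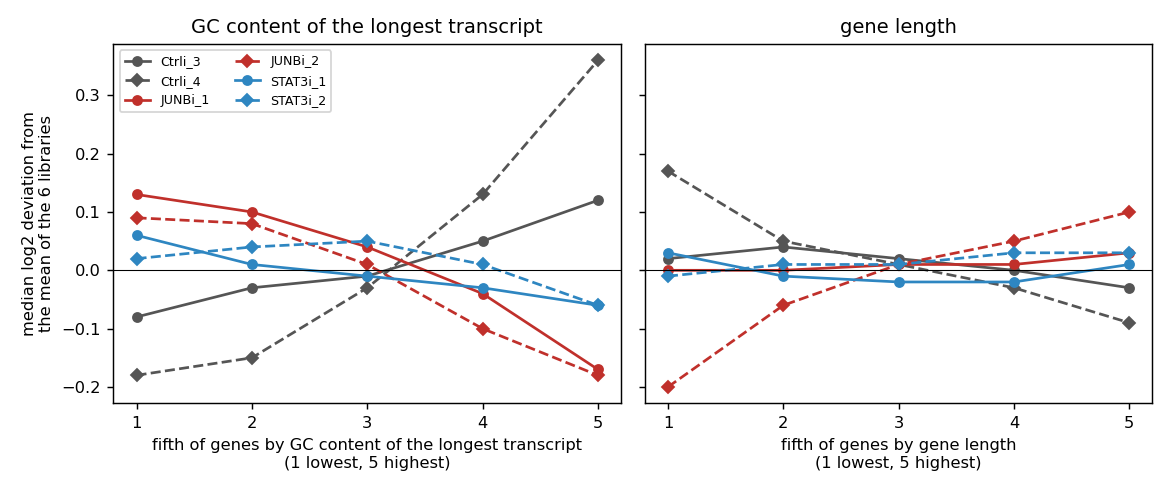
Median log2 deviation of each library from the mean of the 6 libraries of the set, over 5 classes of genes of like size (1666 to 1669 genes each), ranked by GC content of the longest transcript (left) or by gene length (right). Lines join the medians of a library. Ctrli_4 rises from -0.18 to 0.36 along the GC classes and the JUNBi libraries fall from 0.13 and 0.09 to -0.17 and -0.18.

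The comparison of JUNBi with Ctrli called 287 of 7187 genes that were tested, at an adjusted p under 0.01. Of these 21 were higher (0.292% of genes tested) and 266 lower (3.7%). The median log2 fold change was 1.08 among the higher genes, from 0.68 to 1.66, and -0.93 among the lower, from -0.59 to -2.44. All 287 were without overlap between the 2 JUNBi and the 2 Ctrli libraries. Non-overlap by itself was common: among the 8354 genes with a mean of at least 100, 29.6% had both JUNBi libraries above both controls and 31.6% below. The called lower genes were GC-rich, with a median of 62.7% against 50.9% for all genes tested, and 251 of the 266 (94.4%) had more counts in Ctrli_4 than in Ctrli_3, against 54.1% of the genes tested. The fit with GC bins called 84 genes, 26 higher (0.376%) and 58 lower (0.838%), of which 66 were among the 287. Without Ctrli_4, 35 genes were called, 9 higher (0.153%) and 26 lower (0.442%), and 31 of them were among the 287. With edgeR no gene passed, the lowest adjusted p being 0.0203, although 2605 of 13606 genes had an unadjusted p under 0.05. The share of higher genes was 7.32% of the calls and 31.0% with GC bins. Lower genes outnumbered higher ones in both fits, and the size of that lean depended on the setting.

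**Figure D2:**
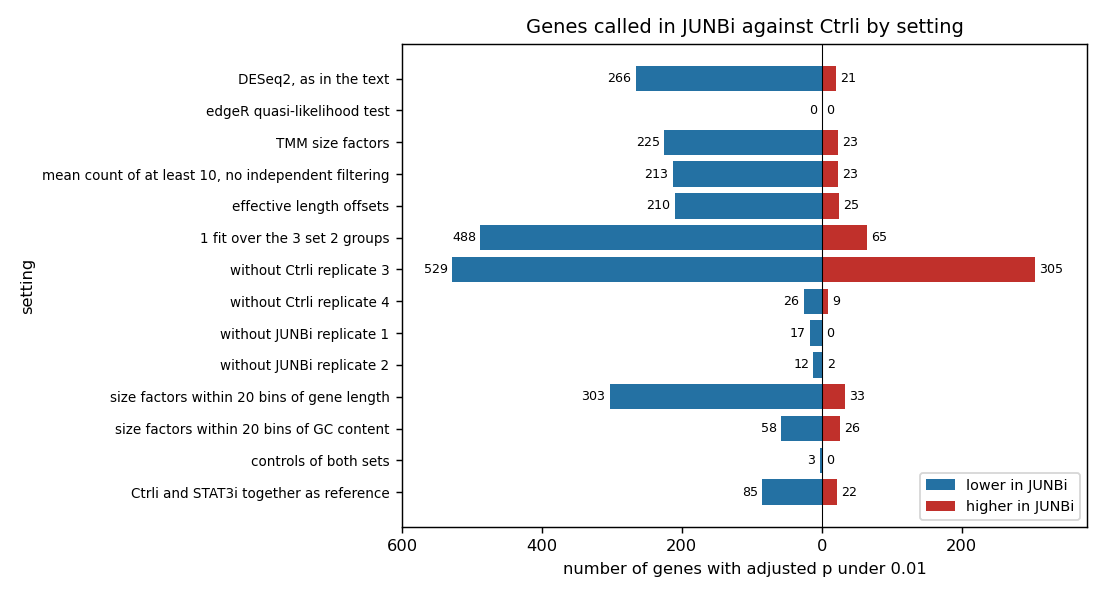
Number of genes with an adjusted p under 0.01 in JUNBi against Ctrli under each setting, lower genes to the left and higher genes to the right of 0. The count of lower genes runs from 0 with edgeR to 529 without Ctrli_3, and is 266 in the comparison given in the text.

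Only 5 genes, all lower, were called also when each of the 4 libraries was left out in turn. They were SLC25A1, COMMD4, GPX3, G0S2 and ECE1. Here and below a gene without an adjusted p in such a fit counts as not called. JUNB and SPDEF had none without JUNBi_1, so their absence from these genes is not a failed test. SLC25A1 (chromosome 22, 19175581 to 19178739, minus strand) encodes the mitochondrial citrate carrier, which exports citrate for fatty acid and sterol synthesis. It held 1696 and 2318 normalized counts in Ctrli, 518 and 420 in JUNBi, and 1507 and 1242 in STAT3i. Both JUNBi libraries were far below the other 4. The log2 fold change was -2.09 (SE 0.22, adjusted p 7.5e-17), and -1.48 with GC bins (adjusted p 7.9e-11).

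COMMD4 (chromosome 15, 75336020 to 75343224, plus strand), a member of the COMM domain family that takes part in endosomal sorting, held 2141 and 3033 normalized counts in Ctrli, 800 and 669 in JUNBi, and 1843 and 1746 in STAT3i. Its log2 fold change was -1.81 (SE 0.22, adjusted p 2e-13). GPX3 (chromosome 5, 151020591 to 151028988, plus strand) encodes a secreted glutathione peroxidase. It held 2444 and 3248 counts in Ctrli, 878 and 846 in JUNBi, and 2263 and 2189 in STAT3i, for a log2 fold change of -1.72 (SE 0.20, adjusted p 2.5e-14). G0S2 (chromosome 1, 209675412 to 209676390, plus strand), an inhibitor of the triglyceride lipase ATGL, held 4167 and 3850 counts in Ctrli, 1463 and 1225 in JUNBi, and 3696 and 4489 in STAT3i. Here Ctrli_3 was the higher control, and the log2 fold change of -1.57 (SE 0.18, adjusted p 2e-14) stood at -1.41 with GC bins. A non-coding gene, HSD11B1-AS1, spans G0S2 on the opposite strand. ECE1, the endothelin-converting enzyme, is outside the rule for named genes and was singled out after its values were seen. It held 1772 and 1774 counts in the controls, 629 and 683 in JUNBi, and 1925 and 1767 in STAT3i, with a log2 fold change of -1.43 (SE 0.19, adjusted p 9.8e-11).

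The promoter windows of the named genes in this group are shown, since these genes fell together and AP-1 binds DNA directly. The windows run from 250 bases before to 50 bases after the gene start on the gene's strand, from RefSeq on GRCh38.p14. They were searched on both strands for the AP-1 element TGAGTCA, whose reverse complement is TGACTCA, and a match is in capitals.
SLC25A1, chr22:19178687-19178986, minus strand: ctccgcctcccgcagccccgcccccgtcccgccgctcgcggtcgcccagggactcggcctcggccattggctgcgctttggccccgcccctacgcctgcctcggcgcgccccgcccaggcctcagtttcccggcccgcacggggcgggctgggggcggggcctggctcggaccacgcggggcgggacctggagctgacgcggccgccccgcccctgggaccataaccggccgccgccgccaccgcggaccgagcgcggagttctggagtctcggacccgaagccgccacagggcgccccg
COMMD4, chr15:75335813-75336112, plus strand: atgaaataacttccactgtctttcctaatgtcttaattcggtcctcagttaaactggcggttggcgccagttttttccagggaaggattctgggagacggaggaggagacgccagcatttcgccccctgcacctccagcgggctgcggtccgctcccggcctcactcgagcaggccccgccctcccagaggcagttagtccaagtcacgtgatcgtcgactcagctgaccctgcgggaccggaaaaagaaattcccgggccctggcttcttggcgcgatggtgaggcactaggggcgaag
GPX3, chr5:151020341-151020640, plus strand: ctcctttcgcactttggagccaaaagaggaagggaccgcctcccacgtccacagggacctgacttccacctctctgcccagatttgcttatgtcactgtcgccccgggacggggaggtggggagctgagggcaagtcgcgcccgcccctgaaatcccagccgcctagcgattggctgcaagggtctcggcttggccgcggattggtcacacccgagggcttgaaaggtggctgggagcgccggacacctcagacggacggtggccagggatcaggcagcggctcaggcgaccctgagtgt
G0S2, chr1:209675162-209675461, plus strand: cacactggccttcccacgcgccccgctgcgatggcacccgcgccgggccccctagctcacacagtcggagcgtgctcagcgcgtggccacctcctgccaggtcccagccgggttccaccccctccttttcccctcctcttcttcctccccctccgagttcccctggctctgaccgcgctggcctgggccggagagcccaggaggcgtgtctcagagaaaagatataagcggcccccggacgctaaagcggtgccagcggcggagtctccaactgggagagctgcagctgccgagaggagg
None of the 4 windows holds the element. It was found in 4.95% of 35116 such windows of all genes, counting each gene start. Of the called genes whose symbol matched, 10 of 208 lower ones (4.81%) and 1 of 15 higher ones (6.67%) had a window with it, against 4.55% of 5868 genes tested. These shares are close to each other, and elements outside the windows were not searched.

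Besides SLC25A1, JUNB, COMMD4, GPX3 and G0S2, the 12 genes that fell most held 7 others. SPDEF, an ETS factor of luminal and secretory epithelium, held 548 and 732 normalized counts in Ctrli, 175 and 165 in JUNBi and 500 and 424 in STAT3i (log2 fold change -1.91, SE 0.27, adjusted p 1.1e-09). CST4, a salivary cystatin, held 252 and 383 in Ctrli, 108 and 109 in JUNBi and 393 and 224 in STAT3i. It has close paralogs, among them CST1, and reads they share make its value uncertain. EXTL3, a glycosyltransferase of heparan sulfate synthesis, held 637 and 818 in Ctrli, 243 and 262 in JUNBi and 693 and 613 in STAT3i (-1.52, SE 0.25, adjusted p 5e-07). In these 3 genes the STAT3i libraries lay with or near the controls.

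In the other 4 the STAT3i libraries lay near JUNBi, and Ctrli_4 lay far above Ctrli_3. TMEM160, a mitochondrial inner membrane protein, held 1562 and 3103 normalized counts in Ctrli_3 and Ctrli_4, 740 and 703 in JUNBi, and 802 and 724 in STAT3i. Its log2 fold change was -1.69 against Ctrli (adjusted p 2e-07) and -0.07 against STAT3i (adjusted p 0.927). LRRC26, an auxiliary subunit of BK potassium channels, held 232 and 468 in Ctrli, 86.3 and 74.2 in JUNBi, and 108 and 79.8 in STAT3i. TYMP, thymidine phosphorylase, held 676 and 1352 in Ctrli, 348 and 343 in JUNBi, and 393 and 303 in STAT3i, and overlaps SCO2 on its strand. TGFBR3L held 425 and 671, 199 and 175, and 236 and 205 counts in these groups. Their GC contents of 60.3% to 74.7% were above the median of the genes tested. With GC bins LRRC26 (-1.48, adjusted p 0.00402), TMEM160 (-1.05, adjusted p 0.00075) and TYMP (-1.21, adjusted p 0.00126) still passed and TGFBR3L did not (adjusted p 0.0294). The log2 fold changes against Ctrli were -2.12 for LRRC26, -1.55 for TYMP and -1.54 for TGFBR3L, and those against STAT3i were -0.22, 0.00 and -0.23. Without Ctrli_4, TYMP and TGFBR3L no longer passed (adjusted p 0.0488 for each) and TMEM160 did (adjusted p 0.00039).

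**Figure D3:**
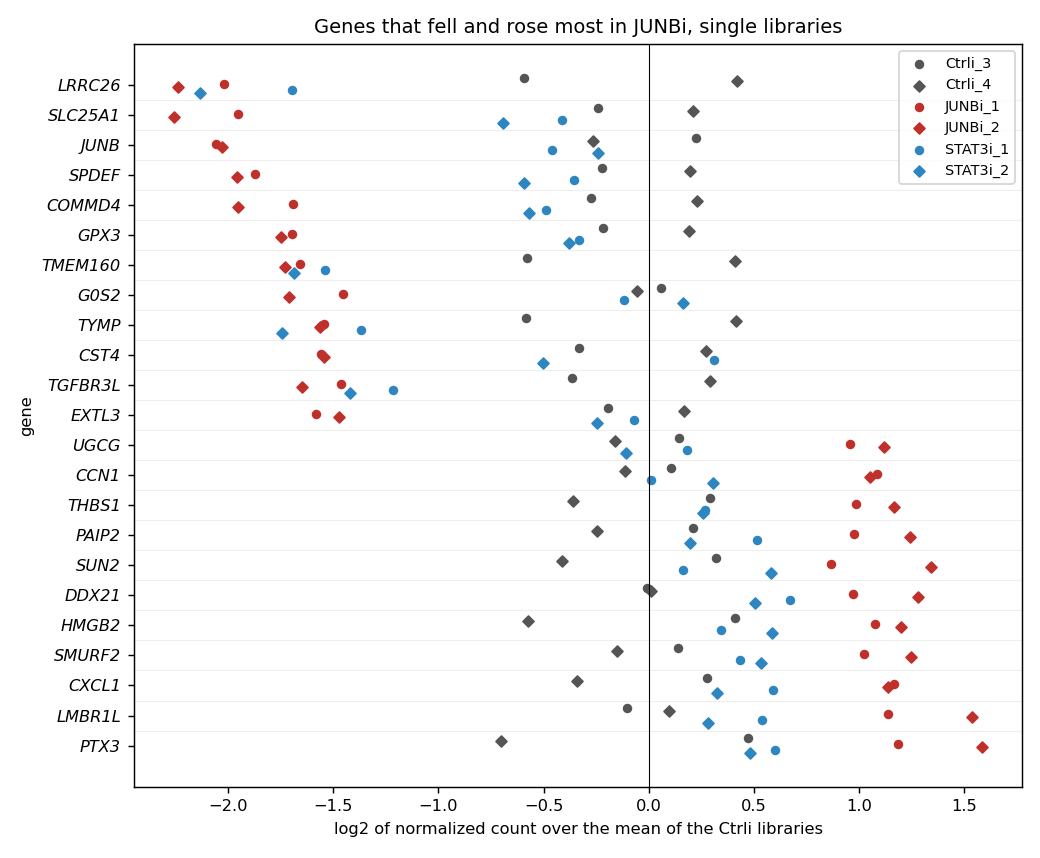
The 12 genes that fell most and 11 of those that rose most in JUNBi, each library as the log2 of its normalized count over the mean of the 2 Ctrli libraries. The JUNBi points lie apart from both controls in all 23 rows, by the rule that chose the genes. The STAT3i points lie with the JUNBi points for LRRC26, TMEM160, TYMP and TGFBR3L.

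Among the genes that rose, secreted proteins of the matrix and of inflammation were named by the rule. PLAU, which encodes the protease urokinase, held 2921 and 2619 in Ctrli, 4254 and 4574 in JUNBi and 3195 and 3263 in STAT3i (0.68, SE 0.17, adjusted p 0.00338). The PLAU call was kept without Ctrli_3 and lost without Ctrli_4 (adjusted p 0.0904), JUNBi_1 (0.121) or JUNBi_2 (1). THBS1, thrombospondin 1, held 1515 and 965 in Ctrli, 2458 and 2780 in JUNBi and 1491 and 1484 in STAT3i (1.08, SE 0.23, adjusted p 0.00022). CCN1 (chromosome 1, 85580761 to 85584589, plus strand), a matricellular protein and a widely used YAP/TAZ target, held 3823 and 3290 in Ctrli, 7553 and 7365 in JUNBi and 3577 and 4395 in STAT3i. Its log2 fold change was 1.07 (SE 0.17, adjusted p 1.3e-07), and 0.93 with GC bins (adjusted p 6.2e-07).

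The chemokine CXCL1, which draws neutrophils, held 612 and 398 normalized counts in Ctrli, 1131 and 1110 in JUNBi and 761 and 633 in STAT3i (1.15, SE 0.24, adjusted p 0.00026). PTX3, a soluble pattern recognition molecule, held 225 and 99.9 in Ctrli, 369 and 487 in JUNBi and 246 and 227 in STAT3i (1.40, SE 0.37, adjusted p 0.00467). For both genes Ctrli_4 was the lowest of the 6 libraries. Without it the adjusted p was 0.0244 for CXCL1 and 0.17 for PTX3. With the set 1 controls added to the reference, in a fit without a term for the set, the estimate for PTX3 was -0.61.

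The other genes that rose most have varied roles. SMURF2, a ubiquitin ligase of TGF-beta signalling, held 581 and 476 normalized counts in Ctrli, 1074 and 1255 in JUNBi and 714 and 766 in STAT3i (1.14, SE 0.22, adjusted p 4.6e-05). UGCG, the ceramide glucosyltransferase, held 421 and 340, 738 and 825, and 432 and 353 counts in these groups (1.04, SE 0.24, adjusted p 0.00092). PAIP2, a repressor of poly(A)-binding protein, held 386 and 282 in Ctrli and 657 and 791 in JUNBi. For these 3 genes the JUNBi libraries were above the other 4. HMGB2, a chromatin protein, held 1075 and 543 in Ctrli and 1704 and 1858 in JUNBi, so the gap between the controls was wide. DDX21, a nucleolar helicase, held 157 and 159 in Ctrli and 310 and 384 in JUNBi, with STAT3i between them at 252 and 224. SUN2, a nuclear envelope protein, held 373 and 224 in Ctrli and 544 and 757 in JUNBi, and overlaps DNAL4 on its strand. LMBR1L, a membrane receptor, held 90.4 and 104 in Ctrli and 214 and 282 in JUNBi. With the set 1 controls added, DDX21 stood at -1.63, on the other side of 0. With GC bins UGCG, PAIP2, HMGB2, DDX21 and PTX3 did not pass (adjusted p 0.0241, 0.0252, 0.0162, 0.0644 and 0.0185). SMURF2, SUN2, LMBR1L, CXCL1 and THBS1 did (0.00142, 0.00098, 0.00238, 0.00188 and 0.001). None of the 11 genes described among the 12 that rose most was called in each fit that left out 1 library.

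SUN2 was the gene among the 23 described with the largest changes whose promoter windows held the AP-1 element, in 1 of its 3 annotated starts, at 132 bases before that start. Windows were matched for 10 of the 12 that fell, without CST4 and EXTL3, and for 9 of the 11 that are described among those that rose, without HMGB2 and CCN1.
SUN2, chr22:38755417-38755716, minus strand: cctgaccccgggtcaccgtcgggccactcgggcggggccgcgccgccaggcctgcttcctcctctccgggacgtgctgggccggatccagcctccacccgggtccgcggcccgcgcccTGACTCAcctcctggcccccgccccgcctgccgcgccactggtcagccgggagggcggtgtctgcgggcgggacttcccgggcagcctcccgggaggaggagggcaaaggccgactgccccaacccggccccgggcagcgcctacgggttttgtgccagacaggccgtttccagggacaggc
The match is in capitals and is a description of the letters only. Several of the named genes overlap others in the annotation, such as PTX3 with VEPH1, THBS1 with FSIP1, MMP1 with WTAPP1 and PLAU with C10orf55, and their counts are uncertain to that extent.

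MMP1 fell while PLAU, of the same list, rose. MMP1 (chromosome 11, 102789401 to 102798160, minus strand), the interstitial collagenase and a long-known AP-1 target, held 3724 and 3971 normalized counts in Ctrli, 1709 and 1486 in JUNBi, and 4075 and 3833 in STAT3i. The controls agreed closely for this gene, and both JUNBi libraries were below the other 4. The log2 fold change was -1.26 (SE 0.18, adjusted p 9.1e-10), -1.46 with GC bins (adjusted p 1.1e-13), and -1.30 against STAT3i (adjusted p 5.4e-21). A call was made in 3 of the 4 fits that left out 1 library. Of 25 genes for matrix proteases and their inhibitors, 16 were tested, 2 rose, among them PLAU, and 1 fell (MMP1), with a median log2 fold change of -0.01 against -0.02 over all genes tested. The list of 29 genes known as AP-1 targets gave the same 3 calls among 18 tested, with a median of 0.11. Over all genes tested 0.292% were called higher and 3.7% lower.

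The other AP-1 genes were examined to see whether they moved with JUNB. Of 17 family members 9 were tested and JUNB was the 1 called. FOSL1, the FOS protein with the highest level per length, stood at 416 and 559 TPM in Ctrli and 470 and 441 TPM in JUNBi. In normalized counts FOSL1 held 5794 and 8834 in Ctrli and 6410 and 5236 in JUNBi, which overlap. JUND held 1689 and 1638 counts in Ctrli, 1341 and 1241 in JUNBi and 1203 and 1286 in STAT3i. Its log2 fold change of -0.36 (SE 0.19, adjusted p 0.21) became 0.22 with GC bins, so no direction is given. JUN, the main activating partner, held 1181 and 694 in Ctrli and 987 and 1328 in JUNBi (0.31, SE 0.27, adjusted p 0.512). FOSL2 held 1056 and 998 in Ctrli and 1067 and 1233 in JUNBi (0.16, SE 0.20, adjusted p 0.66).

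The remaining members were lower in level. The small MAF proteins, which form dimers with bZIP partners, held 344 and 336 (MAFF), 392 and 308 (MAFG) and 427 and 496 (MAFK) normalized counts in Ctrli. In JUNBi they held 422 and 543, 514 and 529, and 414 and 359, with adjusted p-values of 0.216, 0.133 and 0.585. BATF held 121 and 169 in Ctrli and 91.2 and 60 in JUNBi, and BATF3 171 and 149 against 150 and 119. ATF2, ATF3, ATF7 and JDP2 held at most 100 in any of the 4 libraries. FOS held 2.51 and 0 in Ctrli and 16.8 and 6.1 in JUNBi, and FOSB 2.51 and 0 against 8.38 and 6.1. These counts are too few for an adjusted p. The median log2 fold change of the 9 tested was -0.24, and 0.22 with GC bins, so the sign for the family flips with that scaling.

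**Figure D4:**
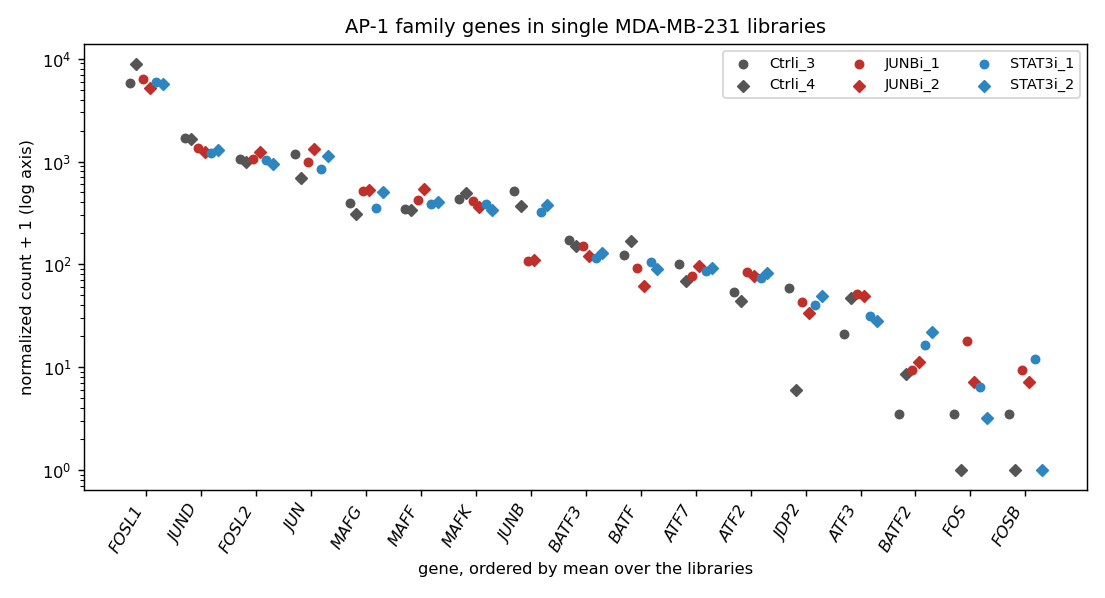
Normalized counts plus 1 (log axis) of the 17 AP-1 family genes in each of the 6 libraries of the set. JUNB is the gene whose 2 JUNBi points (106 and 108 before the addition) lie well apart from the other 4 (320 to 514). FOSL1 is the highest at 5236 to 8834.

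Genes of YAP/TAZ signalling were next. Of 22 YAP/TAZ target genes 16 were tested and 1 rose, CCN1, beside 0.292% of all genes tested that were called higher. Their median log2 fold change was 0.46 against -0.02 over all genes tested, 0.44 with GC bins and 0.32 without Ctrli_4. Among the 18 with a mean of at least 100, 12 had both JUNBi libraries above both controls and 0 below, beside 29.6% and 31.6% of all such genes. Of the 20 genes for YAP, TAZ, TEAD and Hippo proteins 12 were tested and none was called. TEAD2 held 197 and 187 normalized counts in Ctrli and 103 and 106 in JUNBi (adjusted p 0.0984), and MOB1A 406 and 336 against 535 and 549 (adjusted p 0.142).

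Inflammatory, cytokine and growth signals gave few calls, beside 0.292% of all genes tested called higher and 3.7% called lower. Of 30 NF-kB and cytokine genes 22 were tested and CXCL1 rose, with a median of 0.27. Of 20 genes for STAT3 and gp130 signalling 12 were tested and none was called. BCL3 held 319 and 286 in Ctrli and 211 and 246 in JUNBi, and JAK1 443 and 361 against 307 and 317 (adjusted p 0.408 and 0.418). Of 22 genes for MAPK feedback and the EGF family 12 were tested and 1 rose, DUSP5, a nuclear phosphatase of ERK, at 443 and 509 in Ctrli and 810 and 871 in JUNBi (0.82, SE 0.22, adjusted p 0.00672). The DUSP5 call was lost in all 4 fits that left out 1 library (adjusted p 0.0325 to 1) and with the mean count filter (0.0107), and kept with GC bins (0.00095). Of 36 interferon-stimulated genes 12 were tested and ISG15, a ubiquitin-like protein, fell, from 1920 and 3049 in Ctrli to 1325 and 1045 in JUNBi (-1.06, adjusted p 0.00062). Its STAT3i libraries held 1695 and 1335, and the call was lost with GC bins (adjusted p 0.0603). Of 21 TGF-beta genes 11 were tested and none was called. TGFBR2, the type II receptor, held 305 and 132 in Ctrli and 448 and 499 in JUNBi (adjusted p 0.0237), and TGFB2 80.4 and 82.4 against 145 and 167, with no adjusted p.

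The adhesion and matrix lists held 1 call, beside 0.292% of all genes tested called higher and 3.7% called lower. None of 13 integrins was called among 7 tested. ITGA3 held 9207 and 9505 in Ctrli and 6035 and 7040 in JUNBi (-0.51, adjusted p 0.0285), which became -0.20 with GC bins, and ITGA6 held 946 and 977 against 1183 and 1215 (adjusted p 0.301). Of 25 collagen and matrix genes 18 were tested and THBS1 rose. Of 18 genes for epithelial-mesenchymal transition and invasion 5 were tested and none was called. CLDN4, a tight junction protein, held 619 and 687 in Ctrli and 906 and 894 in JUNBi, and VIM, the mesenchymal filament vimentin, 19806 and 16508 against 23274 and 22145 (adjusted p 0.143 and 0.211). Of the 10 luminal markers 4 were tested and 2 fell, SPDEF and KRT8, beside 3.7% of all genes tested that were called lower. All 4 had both JUNBi libraries below both controls, beside 31.6% of all genes with a mean of at least 100. Their median log2 fold change was -0.61, and -0.40 with GC bins and -0.18 against STAT3i. The luminal markers summed to 1634 and 1862 TPM in Ctrli, 1352 and 1392 in JUNBi, and 1463 and 1365 in STAT3i. KRT8 held 10383 and 13769 in Ctrli and 8058 and 7006 in JUNBi, with STAT3i at 8195 and 7616 (-0.68, adjusted p 0.00814, and 0.0501 with GC bins).

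The cell cycle lists held 2 calls, a share near the 3.7% of all genes tested that were called lower. E2F1, the factor that drives S-phase genes, held 1594 and 2035 normalized counts in Ctrli, 952 and 984 in JUNBi and 1431 and 1486 in STAT3i (-0.90, SE 0.20, adjusted p 0.00063). TK1, thymidine kinase, held 4523 and 5041, 3060 and 2560, and 3992 and 4011 (-0.76, SE 0.18, adjusted p 0.00121). Both are GC-rich, at 61.6% and 62.8%, and with GC bins the values were -0.49 and -0.36 and did not pass (adjusted p 0.108 and 0.252). E2F1 was the call among 13 tested genes for G1 cyclins, CDK inhibitors and MYC, and TK1 the call among 25 tested DNA replication genes. None of 27 tested mitotic genes was called, the median being 0.12. KIF23 held 268 and 199 in Ctrli and 417 and 418 in JUNBi (adjusted p 0.0361), and CENPE 197 and 156 against 252 and 270. The lists do not hold every cell cycle gene. Outside them CDCA5, CENPM, MAD2L2 and PKMYT1 were called lower, and they were picked from the calls. CDCA5 held 2226 and 2893 in Ctrli, 1022 and 774 in JUNBi and 2291 and 1992 in STAT3i (-1.51, adjusted p 2.3e-09). With GC bins CDCA5 passed (adjusted p 7.3e-09), and CENPM, MAD2L2 and PKMYT1 did not (0.218, 0.0464 and 0.751).

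The metabolic and stress lists held a few lower calls. Since 266 of the 287 calls were lower (3.7% of genes tested), about 1 such call per list of this size is near the background, and the genes are given as single values. Of 22 tested genes for cholesterol and fatty acid synthesis 3 fell, among them FASN, the fatty acid synthase, from 1407 and 1918 to 878 and 934, and MVD, of the mevalonate pathway, from 782 and 1316 to 558 and 532. Their log2 fold changes were -0.87 and -0.94 (adjusted p 0.00203 and 0.00821), whereas the median of the list was 0.09. FASN was also low in STAT3i, at 903 and 1094, and neither gene passed with GC bins (adjusted p 0.492 and 0.234). ALDOA, of glycolysis, held 17346 and 21553 against 12950 and 12539 (adjusted p 0.00983). NDUFB7, a subunit of respiratory complex I, held 2820 and 4529 against 2162 and 1583, BAD, a pro-apoptotic BCL2 relative, 2381 and 3561 against 1794 and 1574, and SDF2L1 of the endoplasmic reticulum 730 and 783 against 445 and 427. With GC bins none of these 4 passed, at adjusted p-values of 0.0294, 0.383, 0.622 and 0.707. No call was made among the tested members of the p53, metallothionein and chromatin lists, which numbered 9, 3 and 12. Of the calls in the lists on cell cycle, metabolism and stress, E2F1, TK1, FASN, MVD, ALDOA, NDUFB7 and BAD were each called in 1 of the 4 fits that left out 1 library, and SDF2L1 in none. MT1X, a metal-binding metallothionein, held 1787 and 2285 in Ctrli and 1386 and 1298 in JUNBi (adjusted p 0.0324), and FDXR, a p53 target, 332 and 534 against 202 and 215 (adjusted p 0.0128).

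The genes listed for the ribosome and for mitochondria were nearly all tested. Of 78 tested cytosolic ribosomal protein genes 3 fell (RPL13, RPL28 and RPL36), with a median log2 fold change of -0.25, and 30 of 78 had both JUNBi libraries below both controls and 2 above, beside 31.6% and 29.6% of all genes with a mean of at least 100. The 3 calls are close to the 3.7% of all genes tested that were called lower. Of 78 mitochondrial ribosomal protein genes 3 fell (MRPL4, MRPL23 and MRPL41), with a median of -0.03. The list of 29 nuclear genes of the respiratory chain, with NDUFB7 the call, had a median of -0.31. The 13 genes of the mitochondrial genome had one of 0.28, with none called. Against STAT3i none of these 4 lists held a call, and their medians were -0.14, -0.10, -0.19 and 0.24. The list of 29 does not hold every respiratory chain gene. Outside it NDUFA11 (-1.25), NDUFS8 (-0.98), NDUFV1 (-0.87), NDUFS7 (-0.82) and ATP5F1D (-1.10) were called lower as well. Of these, NDUFA11 and NDUFS8 passed with GC bins (adjusted p 0.00204 and 0.00402). NDUFA11 alone among them passed against STAT3i (-0.73, adjusted p 8.9e-05). These genes were picked from the calls, and how many others outside the list were tested was not counted. Of 6 tested genes on a list of histones H1-10 fell, from 2877 and 4369 in Ctrli to 1590 and 1674 in JUNBi (-1.15, adjusted p 2.3e-05). STAT3i was as low, at 1603 and 1525 (0.07 for JUNBi against STAT3i, adjusted p 0.915). The H1-10 call was lost with GC bins (adjusted p 0.0639). That list does not hold every histone gene. Outside it H2AJ (-1.03, adjusted p 0.00556) and H2AX (-0.59, adjusted p 0.00867) were called lower. With GC bins H2AJ passed (adjusted p 0.00098) and H2AX did not (0.985). Neither passed against STAT3i (adjusted p 0.157 and 0.253).

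The comparison of JUNBi with STAT3i asks how JUNBi libraries stand apart from another knockdown in the same set without use of the controls. It shares the JUNBi libraries with the comparison above, so its values are not independent of it, and it cannot tell a change in JUNBi from one in STAT3i. It called 115 of 7747 genes tested, 27 higher (0.349%) and 88 lower (1.14%). By edgeR the count was 56, 17 higher and 39 lower. The lower genes had a median GC content of 57.3%. Among the members of the lists, AP-1 targets gave 4 higher and 1 lower of 19 tested, and YAP/TAZ targets 2 higher and 0 lower of 18, with a median log2 fold change of 0.43. For the genes already named the log2 fold changes against STAT3i were -1.54 for SLC25A1, -1.60 for G0S2, -1.36 for GPX3, -1.28 for COMMD4, 0.91 for CCN1 and 0.82 for THBS1.

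The JUNB siRNA was also used in MCF-10A ER-Src cells, a non-transformed breast epithelial line in which tamoxifen (TAM) activates a v-Src fusion and ethanol (ETH) is the vehicle, and those libraries share none with MDA-MB-231. There too JUNB was lower, at 2696 and 3763 normalized counts in Ctrli and 637 and 927 in JUNBi under TAM, and 501 and 642 against 140 and 377 under ETH. These counts were scaled over the 8 ER-Src libraries. SLC25A1 was below both controls under TAM (1124 and 1276 against 367 and 484) and under ETH (1350 and 1679 against 546 and 1175). COMMD4 held 558 and 582 against 285 and 325 under TAM and 608 and 662 against 268 and 327 under ETH. EXTL3 held 801 and 750 against 362 and 387, and 523 and 520 against 299 and 336. The JUNBi libraries of both lines were thus below their controls for these 3 genes. TMEM160 lay below under TAM only, and TYMP overlapped its controls. GPX3, SPDEF, G0S2, CST4, LRRC26 and TGFBR3L had a mean under 100 in ER-Src. Of these G0S2, SPDEF and CST4 were at 0, and GPX3 held 54 and 37.4 in Ctrli and 70.4 and 66.3 in JUNBi under TAM.

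Of the higher genes, PTX3, CXCL1, THBS1 and UGCG had both JUNBi libraries above both controls under each ER-Src treatment. In MDA-MB-231 the calls of PTX3 and UGCG were lost with GC bins. PTX3 held 637 and 713 in Ctrli and 1762 and 1653 in JUNBi under TAM, and 196 and 196 against 452 and 519 under ETH. CXCL1 held 1408 and 1415 against 2639 and 2379, and 1428 and 946 against 2159 and 2240. THBS1 held 3308 and 3121 against 5428 and 5476, and 8100 and 8271 against 16966 and 17652. UGCG held 1996 and 2103 against 3647 and 3102, and 777 and 671 against 1620 and 1187. HMGB2 and SUN2 lay on the other side, below both ER-Src controls under both treatments. HMGB2 held 1668 and 1731 in Ctrli and 1220 and 1249 in JUNBi under TAM, and SUN2 1092 and 1063 against 586 and 676. SMURF2 and PAIP2 were above under TAM only and CCN1 under ETH only, DDX21 was above under TAM and below under ETH, and LMBR1L overlapped its controls. IL24, a cytokine of the IL-10 family that was singled out after its values were seen, was opposite as well. In MDA-MB-231 it held 569 and 541 in Ctrli and 1000 and 987 in JUNBi (0.84, SE 0.21, adjusted p 0.00257). That call was lost with GC bins (adjusted p 0.0251). In ER-Src under TAM it held 7881 and 7293 against 1963 and 1638. The difference between the lines was not tested.

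Across all calls, 161 of the 224 lower genes measured in ER-Src (71.9%) had both JUNBi libraries below both controls under TAM, beside 35.9% of the 6353 genes measured in both lines. Under ETH the share was 64 of 224 (28.6%) beside 30.9%. The JUNBi libraries under ETH differed widely for some genes, with JUNB at 140 and 377 and TYMP at 433 and 1214. For others they were close, such as THBS1 at 16966 and 17652. Non-overlap needs both libraries, so the share under ETH does not show an absence of change. On the opposite side, above both controls, lay 7 of the 224 under each treatment. Of the 21 higher genes 10 were above both controls under TAM (47.6% beside 31.4%) and 6 below. Under ETH 7 were above (33.3% beside 18.5%) and 7 below, so the higher genes were split evenly there. GC content moves with this result as well. In the top of 5 GC classes, at 58.4% or more, which held 176 of the 224, the median log2 ratio of JUNBi over Ctrli under TAM was -0.33, 62.1% of all genes lay below both controls, and 131 of the 176 (74.4%) did. In the lowest class the median was 0.22 and 10.5% lay below. Under ETH 22.2% of the 176 lay below, beside 20.6% of all genes in that class. The 21 higher genes had a median GC content of 47.4%. In GC classes 1, 2 and 3, counted from the lowest, 60.4%, 49.8% and 28.7% of all genes lay above both controls under TAM. The 47.6% of the higher genes is within that range. Under ETH these shares were 22.1%, 27.7% and 22.9%.

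**Figure D5:**
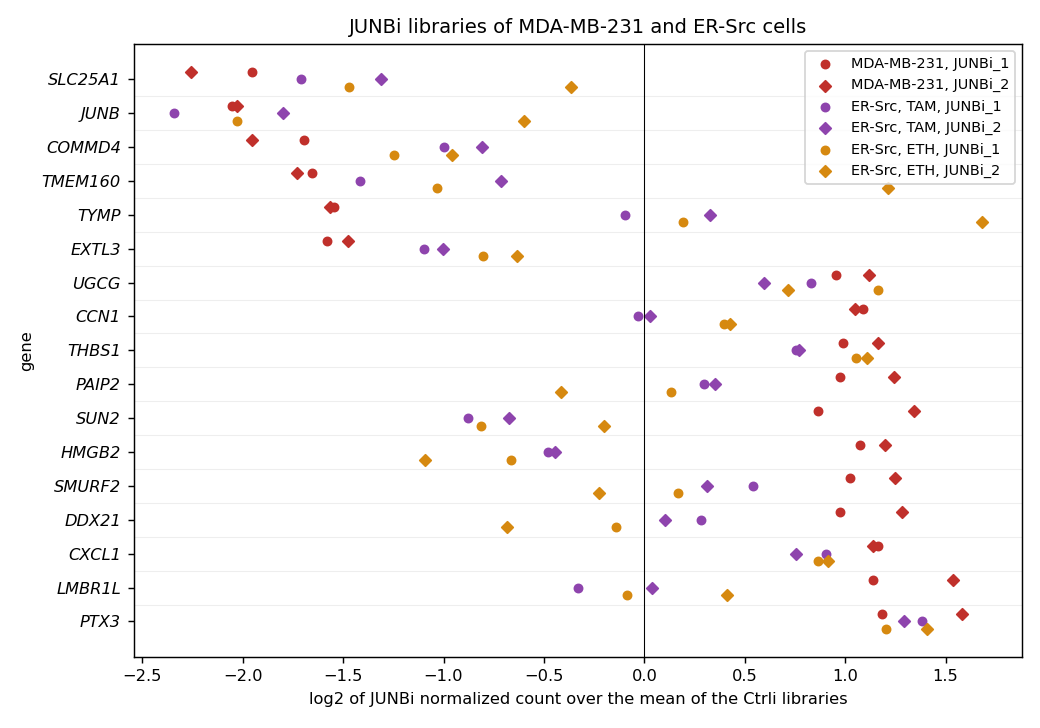
Log2 of each JUNBi library's normalized count over the mean of the 2 Ctrli libraries of its own line and treatment, for the 17 of these 23 genes with a mean of at least 100 in ER-Src. SLC25A1, JUNB, COMMD4 and EXTL3 lie below 0 in all 6 libraries and UGCG, THBS1, CXCL1 and PTX3 above 0 in all 6. SUN2 and HMGB2 lie on opposite sides of 0 in the 2 lines.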

How the data were processed

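RNA was sequenced from MDA-MB-231 and MCF-10A ER-Src cells (TruSeq Ribo Profile Mammalian Kit, HiSeq instrument). The authors trimmed the reads, aligned them with STAR to the GENCODE version 30 transcriptome, allowing up to 20 alignments per read, and quantified genes with RSEM. Versions of STAR and RSEM are not given in the sources used here. The authors deposited RSEM expected counts, which are estimated read counts per gene, not normalized. The authors also deposited TPM, which are scaled by effective length to a common total per library, and the lengths themselves. Each library listed 61471 identifiers, of which 60725 were Ensembl genes and 746 others were left out. Symbols and positions came from GENCODE version 44 (GRCh38) and matched 93.1% of the genes. Reads that fit several genes are shared among them by probability, which makes paralogs and overlapping genes uncertain.

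Groups came from the sample titles. Expected counts were rounded and tested with DESeq2 1.42.0 (R 4.3.3), in a separate run of JUNBi against Ctrli and of JUNBi against STAT3i, with default size factors, independent filtering and Benjamini-Hochberg adjustment over all genes tested. The threshold was an adjusted p under 0.01. The filter left genes with a mean of at least 148 normalized counts. Alternatives were edgeR 4.0.16 (quasi-likelihood), TMM factors, a mean count of at least 10 without independent filtering, effective length offsets, 1 fit over the 3 groups, leaving out each library, set 1 controls added to the reference and, for STAT3i, a replicate block. Chosen after seeing the data were Ctrli and STAT3i together as reference and size factors within 20 bins of length or GC content. The tests were checked on simulated data. Log2 deviations of single libraries used a pseudocount of 0.5. Counting error falls with depth, and the range was 7290499 to 18076158 expected counts in the MDA-MB-231 set.

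Named genes were JUNB, the AP-1 family, the 12 that rose and the 12 that fell most (called, protein-coding, mean of at least 100 normalized counts, no overlap of libraries), up to 4 called members of each list by lowest adjusted p, or up to 2 members with the widest gap where none was called, and the cell markers. The members and lists were chosen with earlier results of these data known. The siRNA sequences were not used here, and 3 genes that the rule names are not reported here.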

Additional observations from a re-analysis of the deposited data

How the results depend on the processing

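JUNB stayed lower under every alternative run. Its log2 fold change was -2.04 with an adjusted p of 0.0319 by edgeR, which misses the threshold, and passed under the others that gave an adjusted p, at -1.48 with GC bins and -1.94 with the set 1 controls added. Leaving out 1 library gave -2.27 to -1.77, and without JUNBi replicate 1 DESeq2 gave no adjusted p.

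The number of genes called in JUNBi against Ctrli was 287. It was 0 by edgeR, 553 in 1 fit over the 3 groups, 84 with GC bins, 107 with Ctrli and STAT3i together as reference and 3 with the set 1 controls added. Leaving out 1 library gave 14 to 834 calls: 834 without Ctrli_3 (305 higher, 529 lower), 35 without Ctrli_4, 17 without JUNBi_1 and 14 without JUNBi_2. In such fits the lone library is assumed to vary like the other group. The other settings gave 235 to 336. The share of higher genes was 7.32%, and 31.0% with GC bins, 36.6% without Ctrli_3, 25.7% without Ctrli_4 and 20.6% with Ctrli and STAT3i together. Of the 39 named genes that were called, 21 still passed with GC bins, 22 with Ctrli and STAT3i together, 31 with the mean count filter, 12 of 36 without Ctrli_4 and 1 with the set 1 controls added, where PTX3 (-0.61) and DDX21 (-1.63) changed sign. The fit with the set 1 controls had no term for the set, so differences between the sets enter its estimates and its spread. The cause of these changes was not tested.

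For JUNBi against STAT3i the count was 115, and 56 by edgeR, 57 in 1 fit over the 3 groups and 30 to 68 with 1 library left out. With the replicate number as a replicate block it was 132. The pairing rests on shared numbers alone, and the deviations of the same-numbered libraries correlated at 0.24 over 8354 genes. No paired analysis was possible for JUNBi against Ctrli because their titles share no replicate number.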
